A study of Mus musculus with 2 samples.

Results

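The genes described here encode the factors that start and extend protein chains on ribosomes, the eukaryotic initiation factors (Eif genes) and elongation factors (Eef genes). They were taken by symbol, as every gene whose name starts with Eif or Eef followed by a digit, without pseudogenes, the Eif2ak kinases and names that start with Eef2k. The rule found 61 of the 49315 genes in the deposited table, 52 Eif and 9 Eef. RNA came from cells labelled as macrophages of mouse dorsal root ganglia, which hold the cell bodies of sensory neurons, with 1 library from normoxia and 1 from chronic intermittent hypoxia. In hypoxia, chamber oxygen cycled from 21% down to 8% and back every 6 min for 8 h a day over 14 days, and the normoxia mice had a sham treatment at 21%. RNA was taken about 18 h after the last exposure. The sources used here do not give the strain, age, sex or number of mice, or how the cells were isolated.

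Initiation brings a small ribosomal subunit, an initiator tRNA and an mRNA together. The eIF2 complex carries the tRNA and is recharged by eIF2B, eIF1, eIF1A and eIF5 help select the start codon, eIF3 is a large scaffold on the small subunit, and the eIF4 factors bind the mRNA cap and unwind the leader. In elongation, eEF1A delivers each charged tRNA, the eEF1B subunits recharge eEF1A, and eEF2 moves the ribosome along by a codon. Many of these mRNAs, the elongation factors above all, belong to the 5′ TOP class (5′ terminal oligopyrimidine tract), whose translation is governed by the mTOR kinase.

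Total counts came to 2171348 in normoxia and 145056 in hypoxia, 15.0 times fewer, and 4640 and 2050 genes were counted. With 1 library per group there is no replicate check and no test, and every interval covers counting error only. Because the libraries are sparse, intervals are given on reads and, where they matter, on estimated starting molecules. The latter divide counts by 229 in normoxia and 39 in hypoxia, the median counts of genes seen in that library alone, which assumes without test that such genes mostly stem from 1 molecule. This gives about 9482 and 3719 molecules. The deposited hypoxia column carries a code whose initial, C, is the only link to its group. Of 12 macrophage marker genes 10 were counted in normoxia and 2 in hypoxia, where Adgre1, Cd68, Csf1r and the C1q genes were at 0. The 2 were Lyz2, with 15670 CPM (counts scaled to a common library total) in normoxia and 21810 in hypoxia, and Itgam, with 53.9 and 275.8, both also known from neutrophils. Through Lyz2 the macrophage list summed to 1.97% and 2.21% of the libraries. The 11 neutrophil markers took 1.80% of the normoxia library against 10.3% of the hypoxia library, and the 7 red cell markers took 9.53% and 7.87%. Fewer cells of a type and less RNA per cell cannot be told apart in these bulk libraries, and the part of the cell mix in the values below was not tested.

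The make-up of the translation factor counts differed between the libraries, with relatively fewer elongation counts in hypoxia. They held 38154 reads in normoxia, 1.76% of the library (exact 95% interval 1.74 to 1.78), and 2449 in hypoxia, 1.69% (1.62 to 1.76). The ratio for the whole set was 0.961 on total counts (0.707 to 1.29 on molecules), but 0.551 with TMM scaling (trimmed mean of M values; 0.405 to 0.740 on molecules) and 0.572 with the median of ratios. For initiation genes the share was 0.778% in normoxia (0.766 to 0.789) against 1.21% in hypoxia (1.16 to 1.27). For elongation genes it was 0.980% (0.966 to 0.993) against 0.475% (0.440 to 0.512). On total counts the Eif share was thus 1.56 times as large in hypoxia (interval on reads 1.48 to 1.64, on molecules 1.05 to 2.29), but TMM turns that ratio to 0.894, with 0.603 to 1.31 on molecules. The Eef ratio was 0.485 (0.449 to 0.523 on reads, 0.274 to 0.812 on molecules) and stayed below 1 with TMM at 0.278.

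**Figure D1:**
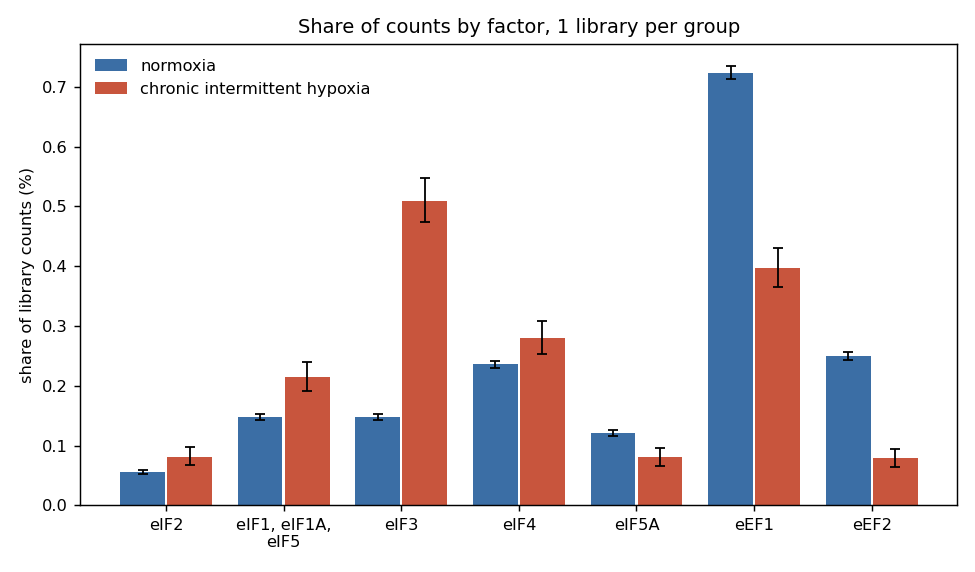
Share of all counts in each library (%, bars) taken by the main translation factors, with exact 95% binomial intervals on reads; 1 library per group. The eIF3 bar is taller in hypoxia (0.510% against 0.148%), and the eEF1 and eEF2 bars are taller in normoxia.

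The balance of elongation to initiation within a library does not depend on how the libraries are scaled to each other. In normoxia there were 1.26 Eef counts for each Eif count, and in hypoxia 0.392. The odds ratio was 0.311 (0.284 to 0.340 on reads), a 3.22-fold lower balance in hypoxia, and 0.320 (0.160 to 0.618) on estimated molecules. Without Eef1a1, the gene with most counts of the set, it was 0.354 (0.310 to 0.404), or 0.362 (0.124 to 0.926) on molecules. Eef2 then held 74.1% of the remaining Eef counts in normoxia. A balance without both Eef1a1 and Eef2 was not computed, so these odds ratios do not speak for the other Eef genes. Counting per transcript length, by the authors' TPM, gave 1.67 in normoxia against 0.466 in hypoxia, with an odds ratio of 0.280.

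**Figure D2:**
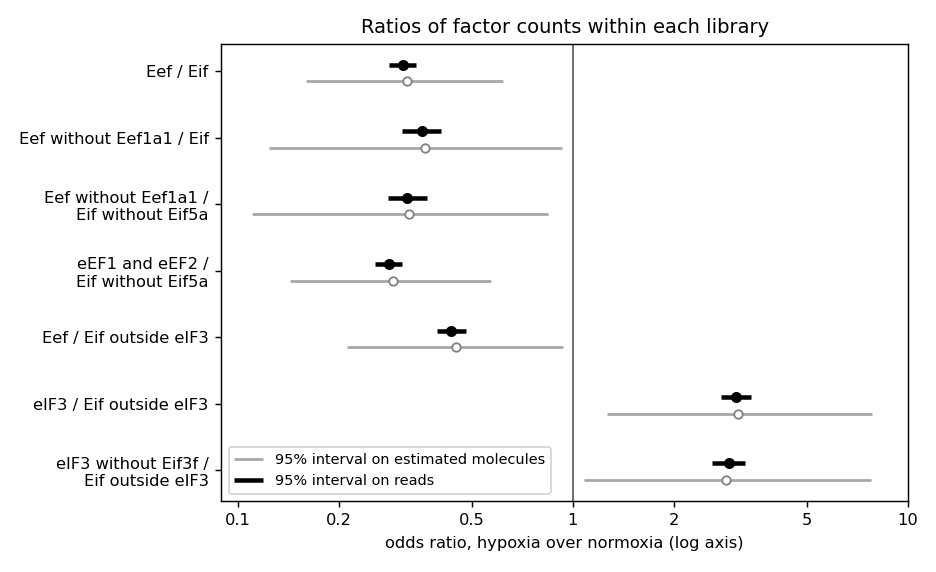
Odds ratios, hypoxia over normoxia (log axis), of the counts of a first group of genes to those of a second within each library, with exact 95% intervals on reads (black) and on estimated molecules (grey). The 5 rows with Eef genes lie below 1, and both rows of eIF3 against other Eif genes lie above 1. The comparison of eIF3 with other Eif genes was chosen after its values were seen.

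Of the 61 members, normoxia counted 37, hypoxia 23 and both libraries 20, while 21 had 0 counts in both. Thus 54.1% of the members seen in normoxia were also seen in hypoxia, against 25% of all genes seen in normoxia. In hypoxia alone there were 3 of the 23 members counted there, against 892 of all 2050 genes counted there. Members had more counts than most genes, with a median of 399 in normoxia against 230 for all counted genes. Among genes with at least 500 counts in normoxia the shares seen in hypoxia were 11 of 15 members and 51.5% of all genes, and among those with at least 50 but under 500 they were 8 of 20 and 19%.

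A size rule was applied to genes with at least 50 counts over both libraries, which 38 members reached. A gene met it when its level on total counts was 2-fold or more higher or lower and the interval on reads did not hold 1. By this rule 11 members (28.9%) were higher in hypoxia, against 16.1% of all 4215 measured genes, and 19 (50%) were lower, against 71.5%. Of the 19 lower members 16 had 0 counts in hypoxia. The 32 measured Eif genes divided into 10 higher, 14 lower and 8 neither, and the 6 measured Eef genes into 1 higher and 5 lower, while 12.4% of all measured genes were neither. With TMM 9 members were higher (11.9% of all genes) and 21 lower (75.7%), with the median of ratios also 9 (12.1%) and 21 (75.5%), and without a count minimum 12 (24%) and 19 (54.4%). On estimated molecules 1 member was higher (Eif4h, against 0.83% of all genes) and 1 was lower (Eef1a1, against 0.38%).

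**Figure D3:**
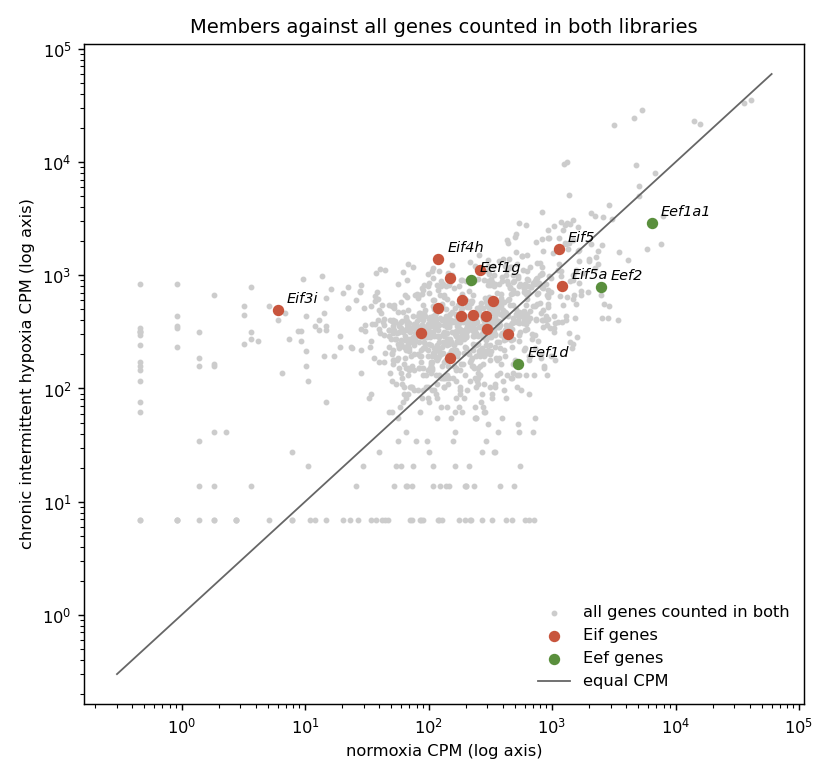
Counts scaled to a common library total (CPM, log axes) in normoxia and hypoxia for all 1158 genes counted in both libraries (grey), the 16 Eif genes among them (red) and the 4 Eef genes (green); the line marks equal CPM. Of the Eif genes 14 lie above the line, and of the Eef genes Eef1g alone does.

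Among genes counted in both libraries, 14 of 16 Eif genes had a ratio above 1 on total counts, against 68.5% of all such genes, and 1 of 4 Eef genes did. The median log2 ratio was 1.11 for the Eif genes, −1.41 for the Eef genes and 0.75 for all 1158 genes. TMM moves each of these by −0.80, and then 10 of the 16 Eif genes lay above 1, against 562 of all 1158 genes. Being counted in hypoxia selects genes that were drawn there, so these values describe the counted genes only.

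The elongation gene Eef1a1 had the highest level per length of all members in both libraries. Eef1a1 (ENSMUSG00000037742, chromosome 9, 78478449 to 78489151 on GRCm38, the build of every position given) encodes the tRNA carrier eEF1A1. It had 13932 reads in normoxia against 418 in hypoxia, which is 6416 and 2882 CPM, or 4709 and 1623 TPM. Its ratio was 0.449 (0.406 to 0.495 on reads, 0.211 to 0.867 on molecules), and TMM lowered it to 0.257. It held 65.5% of all Eef counts in normoxia and 60.7% in hypoxia.

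Eef2 (ENSMUSG00000034994, chromosome 10, 81176631 to 81182498), the translocase, had 5435 and 114 counts, or 1478 and 356 TPM. Its ratio was 0.314 (0.258 to 0.378 on reads), while the interval on molecules, 0.059 to 1.05, included 1. With TMM the ratio was 0.180, with 0.034 to 0.600 on molecules. Both genes are among the 30 genes with at least 5000 counts in normoxia, of which 13 (43.3%) were lower by the size rule. The median ratio of those 30 was 0.712, and 12 of them had a ratio at or below that of Eef1a1 and 9 at or below that of Eef2.

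The eEF1B subunits, which exchange the nucleotide on eEF1A, did not share a direction. Eef1d, the delta subunit, had 1153 reads in normoxia against 24 in hypoxia (ratio 0.312, 0.199 to 0.466 on reads). Eef1g, the gamma subunit (ENSMUSG00000071644, chromosome 19, 8967041 to 8978479), had 477 and 133, a ratio of 4.17 (3.42 to 5.07), or 2.39 with TMM. Eef1b2, the catalytic subunit, had 151 and 0. Their levels per length in normoxia were 165, 155 and 50.2 TPM, and in hypoxia 39.4 for Eef1d and 495 for Eef1g. On molecules the intervals of Eef1d (0.00091 to 3.85) and Eef1g (0.542 to 45.5) both included 1.

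The remaining Eef names add little. Eef1e1, a scaffold protein of the tRNA synthetase complex despite its symbol, had 120 reads in normoxia against 0 in hypoxia. Eef1a2, the form of eEF1A typical of muscle and neurons, and the methyltransferase genes Eef1akmt1 and Eef1akmt2 had 0 in both. Reads of Eef1a1 may be shared with 8 pseudogenes of at least 95% identity over 300 bases or more, 5 of which are in the table, with 523 counts in normoxia and 39 in hypoxia in all. Eef1g has 4 such pseudogenes, of which the 2 in the table held 149 and 0 counts.

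Of the members, 9 code for mRNAs long known as 5′ TOP mRNAs. Their elongation genes held 21148 of the 21268 Eef counts in normoxia and all 689 in hypoxia. Eif3e, Eif3f and Eif3h also belong to eIF3, so the values by class below largely repeat those of Eef and eIF3. The 4 initiation genes among them (Eif3e, Eif3f, Eif3h and Eif4b) held 0.065% of the normoxia library against 0.206% of the hypoxia library, a ratio of 3.17, or 1.82 with TMM, with 0.956 to 11.1 on molecules. The 5 elongation genes (Eef1a1, Eef1b2, Eef1d, Eef1g and Eef2) held 0.974% against 0.475%, a ratio of 0.488, or 0.279 with TMM, with 0.275 to 0.817 on molecules. Of the 8 measured TOP genes 3 were higher by the size rule (Eif3f, Eif3h and Eef1g), 4 were lower (Eef1a1, Eef1b2, Eef1d and Eef2) and Eif4b was neither. That is 37.5% higher and 50% lower, against 16.1% and 71.5% of all measured genes, and the counts were the same with TMM. Each library counted 8 of the 9, normoxia lacking Eif3e and hypoxia Eef1b2.

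Start sites of 5 of these genes are in the RefSeq promoter table for GRCm38.p6, and they are shown because the TOP tract, where present, sits at the first transcribed base. Each line has 15 bases before and 25 from the annotated start. Capitals mark the longest run of a C followed by at least 4 bases that are each C or T, searched on the transcribed strand from 5 bases before to 5 after the start.
Eef1a1: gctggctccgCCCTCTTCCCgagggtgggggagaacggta
Eef2: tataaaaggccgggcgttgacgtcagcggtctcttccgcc
Eef1b2: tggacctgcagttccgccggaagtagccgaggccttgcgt
Eif3f: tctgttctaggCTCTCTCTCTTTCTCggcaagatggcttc
Eif4b: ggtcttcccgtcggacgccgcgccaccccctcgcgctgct
These lie at chr9:78481700-78481739 (minus strand), chr10:81176616-81176655, chr1:63176816-63176855, chr7:108934400-108934439 and chr15:102073758-102073797 (plus strand). Within the searched positions a run was found in 2 of the 5, in 12 of the 46 members with a start site in the table, and in 21.2% of all 27025 genes there. Eef1a1 and Eif3f, whose printed lines both hold a marked run, had ratios of 0.449 and 4.21. The interval of Eif3f on molecules, 0.679 to 34.6, included 1. The Eef1a1 run begins 5 bases before the annotated start, and no such run begins at the start itself. In Eif3f a run of 11 bases begins at the start. By its annotated start the Eef1a1 run lies partly outside the transcript, so its mark does not show a tract in the mRNA. Whether the Eef1a1 run is transcribed at all was not tested. Annotated starts can be off, and runs that begin more than 5 bases from the start were not searched. The Eef2 and Eif4b lines hold runs of this kind further from the start, left in small letters. A missing mark therefore says only that no run begins within the searched positions.

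In percentage points of all counts, eIF3 had the largest difference of the initiation factor groups. The group of eIF4E inhibitors and transporter had a higher ratio, 6.76, which rests on a different gene in each library, and 4 small groups were at 0 in hypoxia. The share of its 14 genes was 0.148% in normoxia (0.143 to 0.154) against 0.510% in hypoxia (0.474 to 0.547). The ratio was 3.43 (3.16 to 3.72 on reads, 1.63 to 7.39 on molecules), and with TMM 1.97, for which the interval on molecules, 0.935 to 4.23, included 1. Set against the other Eif genes within each library, which no scaling touches, eIF3 held 0.236 counts per other Eif count in normoxia and 0.724 in hypoxia. That odds ratio was 3.07 (2.77 to 3.40), or 3.10 (1.26 to 7.82) on molecules. Without Eif3f, its member with most counts in hypoxia, it was 2.92 (2.61 to 3.26), or 2.86 (1.08 to 7.73) on molecules. The Eef genes against the Eif genes outside eIF3 gave 0.434 (0.392 to 0.479), or 0.449 (0.212 to 0.933) on molecules. The comparison of eIF3 with the other Eif genes was chosen after its values were seen. Its intervals therefore describe these counts and are no test of eIF3.

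Normoxia counted 10 of the 14 eIF3 genes and hypoxia 8, with 6 in both. Thus 60% of those seen in normoxia were seen in hypoxia, against 25% of all genes. Of the 10 measured eIF3 genes 6 were higher in hypoxia by the size rule (60%, against 16.1% of all measured genes), 3 lower (30%, against 71.5%) and 1 neither, and with TMM 5 were higher (50%, against 11.9%) and 3 lower (30%, against 75.7%). The large scaffold subunit Eif3a (ENSMUSG00000024991, chromosome 19, 60761117 to 60790658) had 325 reads in normoxia against 138 in hypoxia (ratio 6.36, 5.17 to 7.78 on reads). Eif3f (ENSMUSG00000031029, chromosome 7, 108934417 to 108942951), a subunit of the MPN domain family, had 572 and 161, a ratio of 4.21 (3.52 to 5.03). Eif3h, its MPN domain partner, had 189 and 45, a ratio of 3.56 (2.52 to 4.96). Each of these stayed past 2-fold with TMM, at 3.64, 2.41 and 2.04.

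Eif3d, a cap-binding subunit, had 407 and 87 counts, a ratio of 3.20 (2.51 to 4.04) that fell short of 2-fold with TMM (1.83). Of the 6 subunits counted in both libraries, the highest ratio was that of Eif3i, a WD repeat subunit on chromosome 4 (129591960 to 129600648), with 13 and 71 counts, 81.8 (44.9 to 161 on reads). Eif3m had 721 and 86 counts, a ratio of 1.78, or 1.02 with TMM. None of these 6 subunits had an interval on molecules that excluded 1.

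Other eIF3 genes were seen in 1 library alone. Eif3k had 0 reads in normoxia against 107 in hypoxia, and Eif3e 0 and 44. On molecules the interval of Eif3k ran from 0.899 upward without a bound, and so included 1. Eif3g had 591 and 0, Eif3c 336 and 0, Eif3b 66 and 0, and Eif3l 3 and 0. Eif3e and Eif3l had too few counts for the size rule. Eif3j1 and Eif3j2, which code for the loosely bound J subunit, had 0 in both. Per length, the counted subunits ran from 1.34 TPM (Eif3l) to 251 TPM (Eif3g) in normoxia and from 186 (Eif3i) to 539 (Eif3f) in hypoxia.

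**Figure D4:**
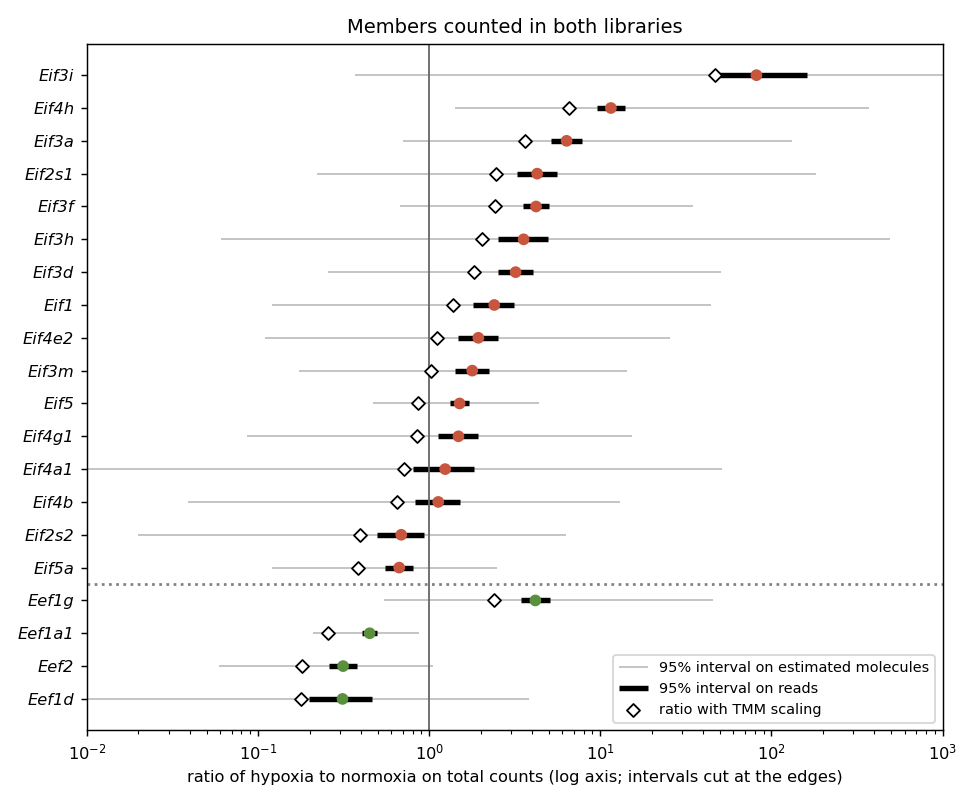
Ratio of hypoxia to normoxia on total counts (log axis) for the 20 members counted in both libraries, Eif genes (red) above and Eef genes (green) below the dotted line, with 95% intervals on reads (black) and on estimated molecules (grey, cut at the edges) and the ratio with TMM scaling (diamonds). The Eif ratios run from 0.668 (Eif5a) to 81.8 (Eif3i), and on molecules only the intervals of Eif4h and Eef1a1 exclude 1.

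Among the eIF4 factors, Eif4h stood out in hypoxia. Eif4h, a cofactor of the eIF4A helicase (ENSMUSG00000040731, chromosome 5, 134619721 to 134639490), had 261 reads in normoxia against 201 in hypoxia, which is 120 and 1386 CPM. The ratio was 11.5 (9.54 to 13.9 on reads, 1.42 to 372 on molecules). With TMM it was 6.61, and the interval on molecules, 0.812 to 213, then included 1. It held 49.6% of the eIF4 counts in hypoxia. The other helicase cofactor, Eif4b, had 649 and 49 counts, a ratio of 1.13 (0.828 to 1.51) that turned to 0.648 with TMM.

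The helicase genes themselves differed on reads, but not on molecules. Eif4a1 had 326 and 27 counts, a ratio of 1.24 (0.805 to 1.84), or 0.710 with TMM. Its paralog Eif4a2 (ENSMUSG00000022884, chromosome 16, 23107444 to 23114136) had 1148 and 0. On molecules the intervals of Eif4a1 (0.0047 to 51.1) and Eif4a2 (0 to 2.77) overlapped and both included 1. Eif4a3, a relative that works in the exon junction complex rather than in initiation, had 405 and 0.

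Of the scaffold genes, Eif4g1 had 636 and 63 counts, a ratio of 1.48 (1.13 to 1.92), or 0.850 with TMM. Eif4g2, which codes for a scaffold that does not bind eIF4E, had 1324 and 0, and Eif4g3 had 143 and 0. Cap binding was covered by Eif4e with 131 and 0 counts, and by its relative Eif4e2 with 502 and 65, a ratio of 1.94 (1.47 to 2.51), or 1.11 with TMM. Eif4e3 and Eif4e1b had 0 in both. The share of the 11 eIF4 genes was 0.236% against 0.279%, and the ratio of 1.18 became 0.678 with TMM, which puts it on the other side of 1.

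The inhibitor Eif4ebp1 (ENSMUSG00000031490, chromosome 8, 27260329 to 27276674), which holds eIF4E back when mTOR is inactive, had 0 reads in normoxia against 70 in hypoxia, or 483 CPM. The floor of 3 counts is 1.38 CPM in normoxia, and the floor of 3 estimated molecules is 316 CPM. Its counts in hypoxia stand for about 1.8 estimated molecules. The interval of its ratio on molecules ran from 0.374 upward without a bound, and so included 1. Eif4enif1, whose product shuttles eIF4E into the nucleus, had 155 and 0. Eif4ebp2 and Eif4ebp3 had 0 in both.

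Of the genes for the tRNA-carrying eIF2 complex, Eif2s1, the alpha subunit that stress kinases phosphorylate, had 259 reads in normoxia against 74 in hypoxia (ratio 4.28, 3.26 to 5.56, and 2.45 with TMM). Eif2s2, the beta subunit, had 959 and 44, a ratio of 0.687 (0.496 to 0.929), or 0.394 with TMM. The gamma subunit genes Eif2s3x and Eif2s3y had 0 in both. Thus the counted subunits of this complex, which hold equal places in it, lay on opposite sides of 1 on total counts. On molecules the intervals of Eif2s1 (0.221 to 182) and Eif2s2 (0.020 to 6.28) both included 1. Of the 5 eIF2B genes Eif2b2 alone was counted, with 75 and 0, while Eif2b1, Eif2b3, Eif2b4 and Eif2b5 had 0 in both, as did Eif2c5, a gene the rule takes by its name alone. Eif2a and Eif2d, whose products can bring initiator tRNA without eIF2, had 549 and 0, and 216 and 0.

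Among the factors of start codon selection, Eif5, the partner that makes eIF2 hydrolyse GTP (ENSMUSG00000021282, chromosome 12, 111538016 to 111546752), was abundant in both libraries. It had 2455 and 247 counts, or 509 and 589 TPM, and a ratio of 1.51 (1.32 to 1.72), or 0.863 with TMM. By level per length it ranked 4 in normoxia and 2 in hypoxia. Eif1, which keeps the ribosome scanning, had 399 and 64 counts, a ratio of 2.40 (1.81 to 3.13), or 1.38 with TMM. It has 13 near-identical copies, of which 11 are in the table, with 353 and 0 counts, so its value is uncertain. Eif1ax had 350 and 0, and Eif1a, Eif1b, Eif1ad and Eif5b had 0 in both.

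Eif5a carries an initiation name but codes for a factor that helps elongation and termination and that carries the amino acid hypusine. Eif5a (ENSMUSG00000078812, chromosome 11, 69916714 to 69921958) had the most counts of the Eif genes in normoxia, 2621, and 117 in hypoxia, or 929 and 476 TPM. Its ratio was 0.668 (0.550 to 0.804 on reads, 0.120 to 2.504 on molecules), on the same side of 1 as that of Eef1a1 and Eef2. Counting it with neither class, the balance of eEF1 and eEF2 genes to the remaining Eif genes had an odds ratio of 0.283 (0.258 to 0.310). Eif6, which keeps large ribosomal subunits apart from small ones, had 100 and 0.

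The 17 members counted in normoxia alone had 3 to 1324 counts there, with a median of 155. At a floor of 3 counts in hypoxia, 14 of the 16 measured ones were at least 2-fold lower, up to at least 29.5-fold for Eif4g2. The share of all genes past this bound was not computed. All 17 nevertheless held less CPM in normoxia (at most 609.8, Eif4g2) than the 807 CPM that 3 estimated molecules take in hypoxia, so their absence was within what that number of molecules allows. In hypoxia, 14 of the 20 members counted in both libraries held no more than 3 estimated molecules, against 974 of all 1158 such genes.

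**Figure D5:**
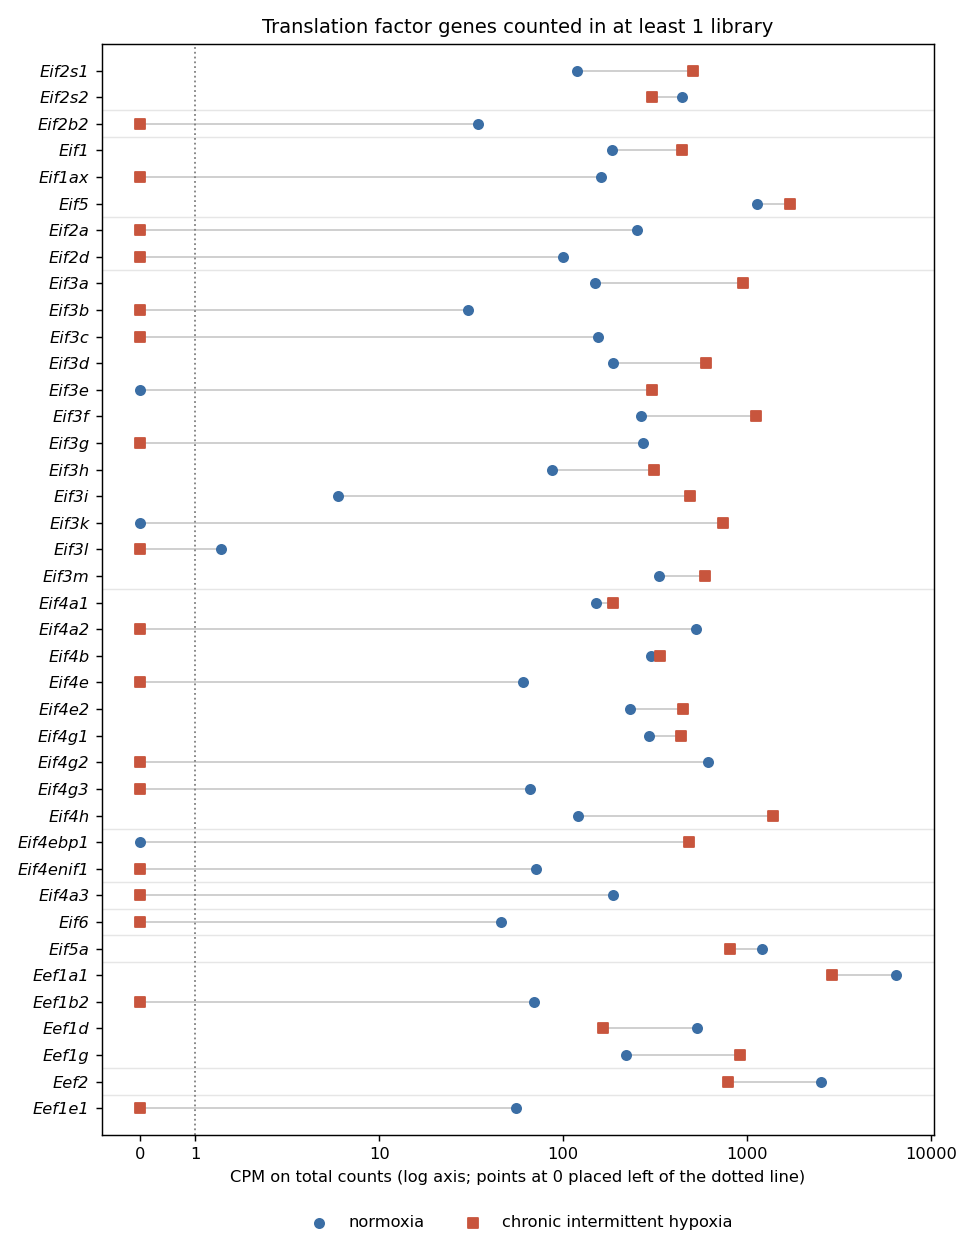
CPM on total counts (log axis, 0 drawn at the left) of the 40 members counted in at least 1 library, in normoxia (blue) and hypoxia (red), in order of role from eIF2 to elongation. There are 17 genes at 0 in hypoxia and 3 at 0 in normoxia (Eif3e, Eif3k and Eif4ebp1).

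Other genes of translation, from a list of 31 regulators, partners and termination or mitochondrial factors, 30 of them in the table, held none that was higher by the size rule. Of 17 measured, 12 were lower (70.6%, near the 71.5% of all measured genes), 11 of these with 0 in hypoxia, and 5 were neither. With TMM 16 of the 17 were lower, against 75.7% of all measured genes. The poly(A) binding gene Pabpc1, a TOP mRNA whose product binds eIF4G, had 6158 reads in normoxia against 61 in hypoxia (ratio 0.148, 0.113 to 0.191 on reads, 0.011 to 0.678 on molecules). The TOP mRNA Tpt1 had 3582 and 241, a ratio of 1.01 (0.880 to 1.15), or 0.577 with TMM. Rack1, a ribosome-bound scaffold, had 1980 and 97, a ratio of 0.733, Pabpc4 had 1151 and 58, a ratio of 0.754, and Nap1l1 had 1034 and 55, a ratio of 0.796.

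The kinases that act on these factors had no counts in hypoxia, and neither did most genes counted in normoxia. Of all genes counted in normoxia 25% were also counted in hypoxia. The shares were 51.5% among genes with at least 500 counts in normoxia and 19% among those with at least 50 but under 500. The absence in hypoxia therefore does not set the kinases apart from other genes. Eif2ak1, the haem-regulated eIF2 kinase of red cell precursors, had 523 reads in normoxia against 0 in hypoxia, and Eif2ak3 had 240 and 0. The S6 kinase gene Rps6kb1 had 667 and 0, and the regulators of poly(A) binding Paip1 and Paip2 had 551 and 0, and 512 and 0. On molecules the intervals of Eif2ak1 (0 to 10.3), Eif2ak3 (0 to 83.6) and Rps6kb1 (0 to 6.50) all included 1. Eif2ak2, Eif2ak4, Eef2k and Mtor had 0 in both.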

How the data were processed

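RNA-seq was made from 2 mouse samples, 1 per group. Per the labels' protocols the library kit was NEBNext Ultra II RNA, with no molecular identifiers mentioned. Reads were handled with STAR 2.5.2b, featureCounts (Subread 1.5.2) and bcl2fastq 2.20, per the submitters' processing notes. Not given in the sources used here were genome build, annotation and strand setting. The values deposited by the authors are raw counts of reads, not normalized, and TPM values made from them. TPM per count differed between the libraries by the same factor, 11.48 to 11.49, in all genes counted in both, so TPM ranks genes per length and adds no measurement. The columns carry codes, 1 with the initial N and 19 with the initial C. The 174 genes without a symbol held 0.023% of counts in normoxia.

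Counts were scaled to library totals (CPM). Totals were preferred because TMM and the median of ratios rest on the 1158 genes counted in both libraries, which sparse sampling selects. TMM (edgeR 4.0.16, R 4.3.3) multiplies each ratio by 0.573. Ratios have exact conditional binomial 95% intervals and shares exact Clopper-Pearson ones (scipy 1.17.1). Without molecular identifiers reads are not independent molecules, so intervals and floors cover counting error only. A 0 was taken to allow 3 counts, 1.38 CPM in normoxia and 20.7 in hypoxia. Positions are from GENCODE M21 (GRCm38), which may not be the authors' build. All 61 members matched. Copies were sought with blastn 2.17.0. Without strand, reads of overlapping genes cannot be told apart, as for Eif2a with Serp1, Eif2d with Rassf5 and Eef1b2 with Ndufs1. Eef2kmt (164 and 0 counts) was left out by its name. Every counted member is named. Members and lists were chosen with earlier results of these data known, and the comparison of eIF3 with other Eif genes, and of TOP genes by class, were chosen after their values were seen.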

Additional observations from a re-analysis of the deposited data

How the results depend on the processing

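The limit of all results is 1 sparse library per group. No paired analysis was possible because each group has 1 library, and no library could be left out. The number of members higher by the size rule was 11 on total counts, 9 with TMM, 9 with the median of ratios and 12 without a count minimum, and the number lower was 19, 21, 21 and 19. With intervals on estimated molecules it was 1 higher and 1 lower. The ratio of the whole set, 0.961 on total counts, was 0.551 with TMM and 0.572 with the median of ratios. The ratio of the Eif share, 1.56 on total counts, was 0.894 with TMM, 0.928 with the median of ratios and 1.72 without Eif5a. The ratio of the Eef share, 0.485, was 0.278, 0.289 and, without Eef1a1, 0.553. The balance of Eef to Eif, with an odds ratio of 0.311, was 0.280 on TPM sums, 0.321 without Eef1a1 and Eif5a, 0.283 for eEF1 and eEF2 genes without Eif5a and 0.320 on molecules, and 0.354 without Eef1a1 alone, a setting added after the data were seen. Of the 20 members counted in both libraries, 4 (Eif5, Eif4a1, Eif4b and Eif4g1) turned from above 1 to below 1 with TMM. Among all 1158 genes counted in both, 793 lay above 1 on total counts and 562 with TMM. By the size rule 16 of the 20 members had the same call with TMM. Eif1 and Eif3d were no longer higher, and Eif2s2 and Eif5a became lower. The change of the Eif ratio with TMM and the median of ratios follows from their construction, a common factor for all genes.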
